A study of Mus musculus with 4 samples.

Results

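Tenomodulin, the thrombospondins and the tenascins are matrix and cell-surface genes of tendon and ligament, and 9 of them were examined here: Tnmd, Comp, Thbs1, Thbs2, Thbs3, Thbs4, Tnc, Tnn and Tnxb. They were taken by name from a mouse microarray, where 9 of 30222 gene names matched through 11 probes on 20 spots. The rule that finds their probes uses names only, although the genes were listed with earlier results of these data known.

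RNA was hybridised to Agilent arrays read in a single colour (Cy3), with 1 array for each of 4 samples. The transfected tissue was a ligament-like tissue of the C3H background. It was grown from mesenchymal stem cells given a mouse gene, named only as A in the labels and carried in pCAGGS, whose promoter is active in most cell types. The transgenic ligament came from A transgenic mice of the C57BL/6J background, made by introducing A in the same vector into fertilised eggs, so A was not limited to ligament cells by its promoter. The wild type ligament came from C57BL/6J mice without the transgene. The stem cells were the C3H mesenchymal stem cells, from mouse embryos and supplied by a cell bank, that the tissue was made from. The labels give no age, sex or number of mice and no anatomical site of the ligament, and the reading of A in these samples is not analysed here because the labels do not name the gene. An empty-vector culture is not among the 4 samples, so A, the transfection and the growth into tissue cannot be told apart. Strain, origin and culture likewise cannot be told apart where cells are set against ligament.

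Tenomodulin is a type II membrane protein with a BRICHOS and a cysteine-rich domain, known as a late marker of tendon and ligament cells, where it acts downstream of the transcription factor scleraxis. Thrombospondins are secreted, calcium-binding glycoproteins that assemble as oligomers and bind collagens, proteoglycans and cell receptors; Comp is a member of that family. Tenascins are large matrix glycoproteins built of EGF-like repeats, fibronectin type III repeats and a fibrinogen-like globe, and they modulate how cells attach to the matrix. In tendon and ligament the thrombospondins and tenascins sit around and between collagen fibrils.

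The levels rest on short probes, and those behind the main results are shown because each measures only its own stretch of the transcript. Positions are those of the scanner files, in the mouse build mm9. The Tnmd probe is at chrX:130397487-130397546 on the plus strand, the Comp probe at chr8:72905692-72905825 on the plus strand and the Thbs2 probe at chr17:14804526-14805789 on the minus strand. The Tnxb probe is at chr17:34856502-34856561 on the plus strand. The Tnc probes are both on the minus strand, at chr4:63674248-63675011 (brighter) and chr4:63643728-63643787 (dimmer), 30460 bases apart. The Comp, Thbs2 and brighter Tnc probes are 60 bases long but cover 134, 1264 and 764 genomic bases, so each joins sequence from both sides of an intron.
Tnmd: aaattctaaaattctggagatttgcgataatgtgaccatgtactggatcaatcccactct
Comp: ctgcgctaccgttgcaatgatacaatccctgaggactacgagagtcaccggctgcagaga
Thbs2: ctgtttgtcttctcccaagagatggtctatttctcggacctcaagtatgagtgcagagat
Tnxb: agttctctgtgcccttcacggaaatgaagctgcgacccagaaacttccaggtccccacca
Tnc, brighter probe: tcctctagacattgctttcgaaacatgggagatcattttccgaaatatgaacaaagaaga
Tnc, dimmer probe: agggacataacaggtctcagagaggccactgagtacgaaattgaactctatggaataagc

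Thbs3 also has a pair of probes, and their starts lie 15 bases apart, so 45 of their 60 bases are shared and they are not independent readings. Both lie on chromosome 3.

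A level is the background-subtracted signal of a probe divided by the 75th percentile of its array, and its ± is the error that the scanner software gave for the spot, which covers the spot measurement and not cultures or animals. By the software's mark, 49.0% to 56.3% of an array's spots stood well above background, and the 75th percentile signal was 2272 (transfected tissue), 303 (transgenic ligament), 285 (wild type ligament) and 1165 (stem cells). The lowest level well above background was 0.0190, 0.0671, 0.0941 and 0.0181 in the same order. Higher and lower are used of differences of 2-fold or more. A fold against a sample that was not well above background is a bound, written as at least N-fold and taken against that array's lowest level, or the dim probe's level where this was higher. In counts over lists of markers and partners, a gene is called measured where it gave a value, bounds included. With 1 array per group there was no test between groups and no replicate check. Fewer cells of a type and less RNA per cell cannot be told apart in such samples. Of 9 ligament and tendon markers outside the group described here, 8 were well above background in the transfected tissue (not Chad), 9 in transgenic ligament, 8 in wild type ligament (not Mkx) and 7 in stem cells (not Kera or Chad). Of 9 mesenchymal stromal markers, 8 were well above background in stem cells (not Nt5e).

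The transgenic ligament gave the highest level of 7 of the 9 genes, and wild type ligament gave the highest of Tnxb and stem cells that of Thbs2. For Thbs1 and Tnn the next level did not differ beyond the scanner interval. All 4 arrays were well above background for 6 genes: Tnmd, Comp, Thbs1, Thbs2, Thbs3 and Tnxb. Thbs4 and Tnc fell short of that mark in the transfected tissue, and Tnn in stem cells.

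**Figure D1:**
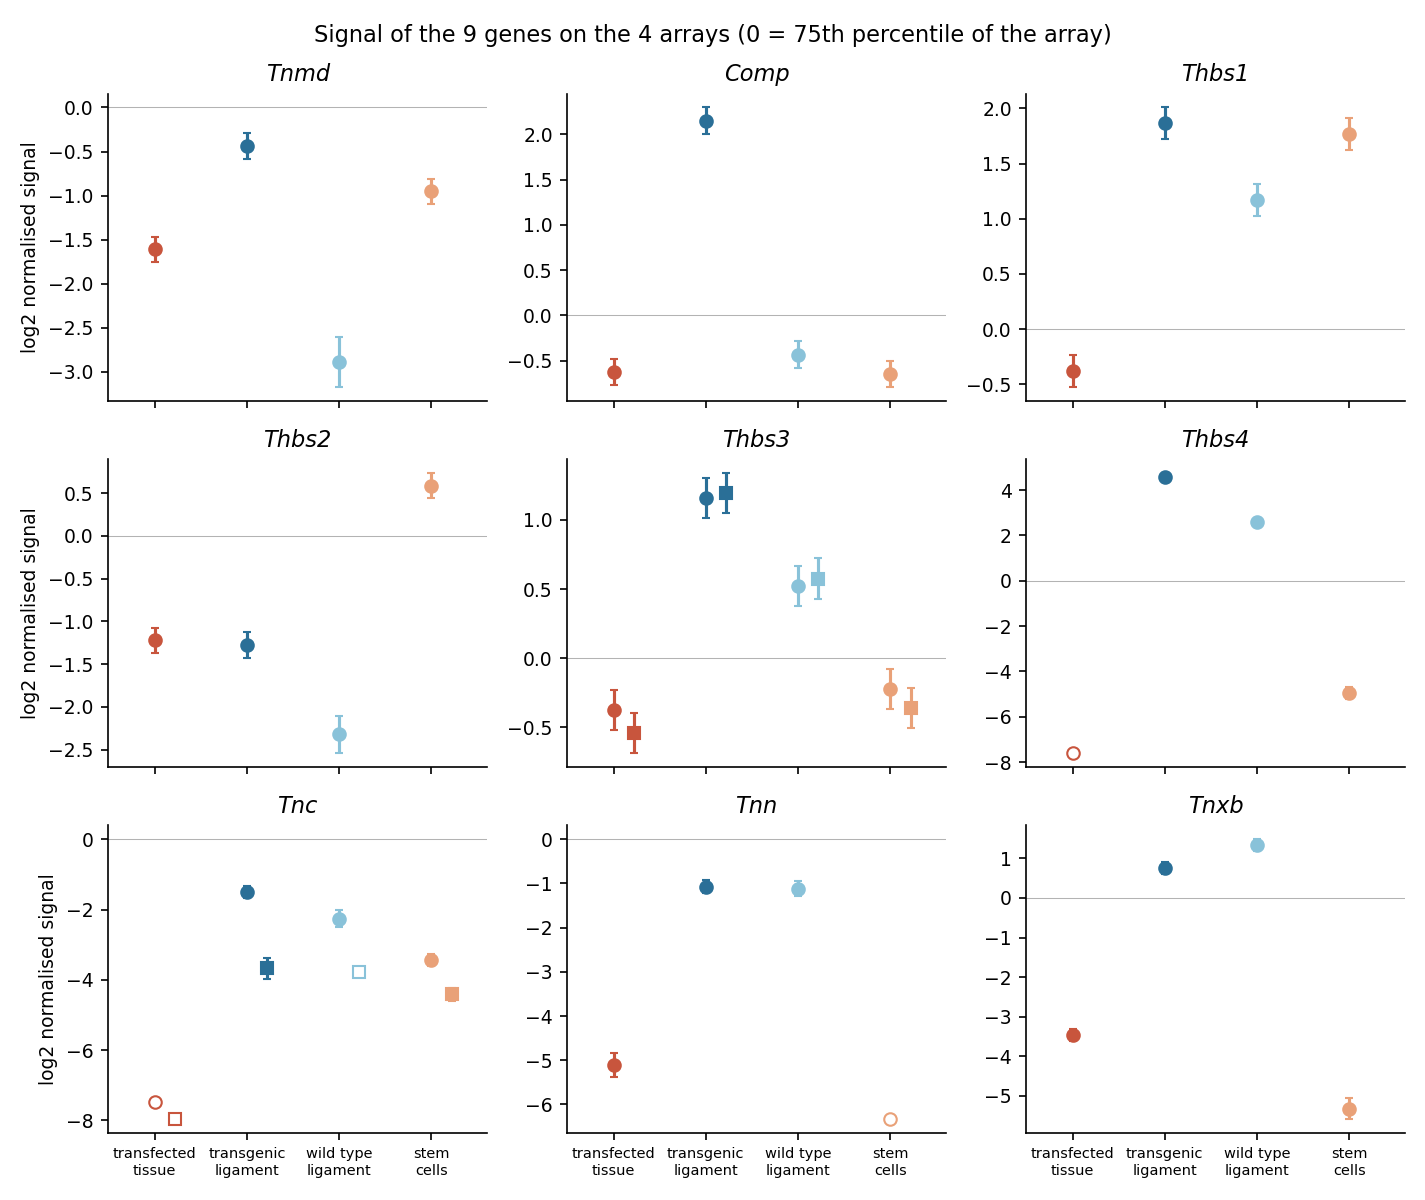
Level of each of the 9 genes on each array, as log2 of the signal over the array's 75th percentile, with the scanner error as bars. Filled points are well above background, open points are not, and squares are the second probes of Thbs3 and Tnc. Thbs4 spans the widest range, with a level of 24.2 in transgenic ligament and 0.00516, not well above background, in the transfected tissue.

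Tnmd, the tendon and ligament marker, had a level of 0.327 ± 0.0330 in the transfected tissue, 0.740 ± 0.0756 in transgenic and 0.135 ± 0.0268 in wild type ligament, and 0.516 ± 0.0518 in stem cells. Wild type ligament was the lowest of the 4 samples and stem cells the second highest. The log2 difference was 2.45 between transgenic and wild type ligament, or 5.48-fold (95% scanner interval of the log2 difference 1.82 to 3.09), and 99.6% of the genes compared had a smaller one. Between the transfected tissue and stem cells it was -0.66, within 2-fold, and between the transfected tissue and wild type ligament it was 1.28. Between wild type ligament and stem cells it was -1.93, lower in ligament.

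The Tnmd probe is printed on 10 spots of each array, and the other 10 probes on 1 spot each. Its spots ranged from 0.311 to 0.352 in the transfected tissue (8 spots after outliers were left out), from 0.674 to 0.818 in transgenic and from 0.0951 to 0.213 in wild type ligament, and from 0.425 to 0.594 in stem cells. The ranges of the 4 arrays did not overlap. In wild type ligament 8 of 10 spots were well above background, where the mean of 0.135 lay near the array's lowest level of 0.0941. With normexp background correction, which shrinks the folds of dim probes, the log2 difference between transgenic and wild type ligament was 1.33, and those of the transfected tissue against wild type ligament (0.21) and of wild type ligament against stem cells (-0.82) were within 2-fold.

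**Figure D2:**
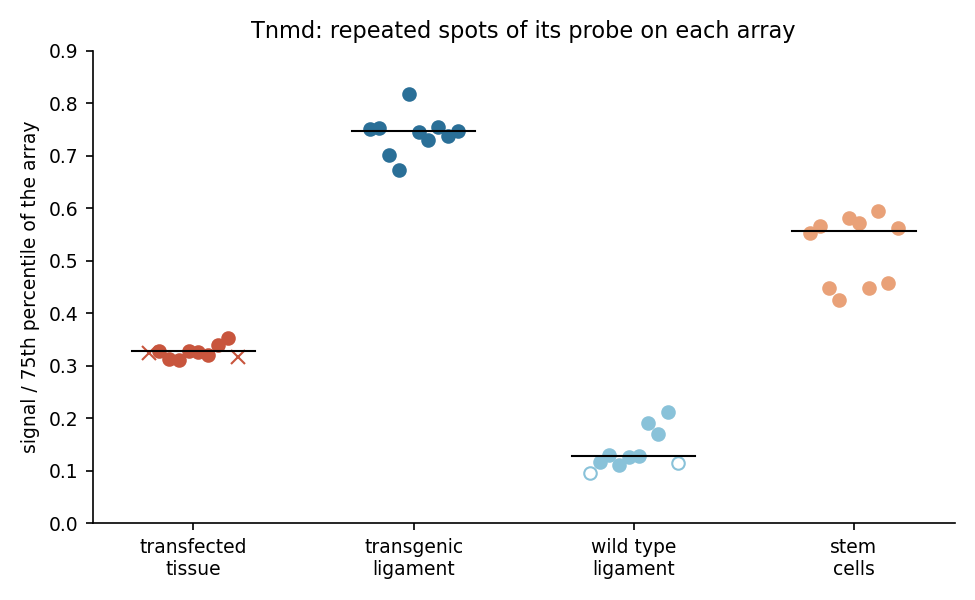
Level of each Tnmd spot, on a linear axis, on the 4 arrays. Crosses mark 2 spots of the transfected tissue that were left out as outliers and lines mark medians. Transgenic ligament spots lie between 0.674 and 0.818, above those of the other arrays, and wild type ligament spots lie lowest, between 0.0951 and 0.213.

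Comp, the pentameric thrombospondin of cartilage, tendon and ligament that organises collagen fibrils, had a level of 0.648 ± 0.0650 in the transfected tissue, 4.44 ± 0.444 in transgenic and 0.742 ± 0.0785 in wild type ligament, and 0.639 ± 0.0641 in stem cells. Transgenic ligament stood apart, and the remaining 3 samples did not differ beyond the scanner interval. The log2 difference between transgenic and wild type ligament was 2.58 (95% scanner interval 2.17 to 2.99), or 5.99-fold, and 99.7% of genes had a smaller one. Between the transfected tissue and stem cells it was 0.02 (interval -0.38 to 0.42).

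Thbs4, the pentameric thrombospondin of tendon, muscle and nerve that is known in mice to limit collagen fibril size, had a level of 24.2 ± 2.42 in transgenic and 6.01 ± 0.601 in wild type ligament, and 0.0323 ± 0.00610 in stem cells. In the transfected tissue it was 0.00516, not well above background. Both ligaments were thus far above both cell samples. Transgenic ligament was 4.03-fold above wild type ligament (log2 difference 2.01, interval 1.61 to 2.41), with 98.9% of genes lower. The wild type ligament was 186-fold above stem cells, and the transfected tissue was at least 315-fold lower than wild type ligament. Against stem cells the transfected tissue gave only a bound, at least 1.70-fold lower (log2 difference -0.76). Whether that difference passed 2-fold is therefore not known.

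Thbs1, a trimeric thrombospondin known for activating latent TGF-beta and inhibiting the growth of vessels, had a level of 0.768 ± 0.0769 in the transfected tissue, 3.64 ± 0.364 in transgenic and 2.25 ± 0.226 in wild type ligament, and 3.40 ± 0.340 in stem cells. The transfected tissue was the lowest, and transgenic ligament and stem cells did not differ beyond the scanner interval. The log2 difference was -2.15 between the transfected tissue and stem cells, a level 4.42-fold lower in the tissue, and only 3.39% of genes had a lower one. It was 0.69 between transgenic and wild type ligament, within 2-fold.

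Thbs2, the other trimeric thrombospondin, whose loss in mice gives irregular collagen fibrils, had a level of 0.429 ± 0.0431 in the transfected tissue, 0.413 ± 0.0442 in transgenic and 0.20 ± 0.0299 in wild type ligament, and 1.50 ± 0.150 in stem cells. Stem cells were the highest and wild type ligament the lowest. The transfected tissue and transgenic ligament did not differ beyond the scanner interval, although they lay on opposite sides of their own controls. The log2 difference was -1.81 between the transfected tissue and stem cells and 1.04 between transgenic and wild type ligament, and the second was 0.53 with normexp background correction.

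Thbs3, a pentameric thrombospondin of the skeleton, had a level of 0.771 ± 0.0772 in the transfected tissue, 2.23 ± 0.224 in transgenic and 1.44 ± 0.146 in wild type ligament, and 0.858 ± 0.0859 in stem cells. The cell samples did not differ beyond the scanner interval and lay below both ligaments. By its brighter probe all its differences were within 2-fold, at -0.15 between the transfected tissue and stem cells and 0.64 between transgenic and wild type ligament. Its overlapping second probe gave -0.18 and 0.62. The probes parted between the transfected tissue and wild type ligament, where the brighter gave -0.90, within 2-fold, and the other -1.12.

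Tnc, the tenascin of developing, loaded and healing tendon, had a level of 0.351 ± 0.0409 in transgenic and 0.209 ± 0.0363 in wild type ligament, and 0.0930 ± 0.0109 in stem cells by its brighter probe. In the transfected tissue it was 0.00558, not well above background. It was at least 4.89-fold lower in the transfected tissue than in stem cells (log2 difference -2.29, with 2.90% of genes lower) and at least 11.0-fold lower than in wild type ligament. The dimmer probe was also not well above background in the transfected tissue, at 0.00403, and gave a level at least 2.47-fold lower there than in stem cells. With normexp background correction the bound for the brighter probe against stem cells was -1.38. Between transgenic and wild type ligament the brighter probe gave 0.75, within 2-fold. The dimmer probe, at 0.0783 in transgenic ligament and 0.0728, not well above background, in wild type ligament, gave no fold.

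Tnn, or tenascin W, a tenascin of bone and stem cell niches, had a level of 0.0290 ± 0.00551 in the transfected tissue, 0.477 ± 0.0507 in transgenic ligament and 0.461 ± 0.0520 in wild type ligament. In stem cells it was 0.0125, not well above background. The ligaments did not differ beyond the scanner interval (log2 difference 0.05, interval -0.39 to 0.49), and the transfected tissue was 15.9-fold below wild type ligament. Wild type ligament was at least 25.5-fold above stem cells. The transfected tissue gave a bound of 0.68 on the log2 scale against stem cells, at least 1.60-fold higher. Whether that difference passed 2-fold is not known.

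Tnxb, the tenascin whose loss in humans causes a form of Ehlers-Danlos syndrome, had a level of 0.0909 ± 0.00986 in the transfected tissue, 1.69 ± 0.170 in transgenic and 2.52 ± 0.253 in wild type ligament, and 0.0251 ± 0.00448 in stem cells. Each neighbouring pair in the order of levels differed beyond the scanner interval. The transfected tissue was 3.63-fold above stem cells (log2 difference 1.86, with 96.7% of genes lower), and still 27.7-fold below wild type ligament. Transgenic ligament lay below wild type ligament by a log2 difference of -0.58, within 2-fold. With normexp background correction the difference between the transfected tissue and stem cells was 0.59.

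Setting the transfected tissue against stem cells bears on what went with A in cells. Here 1 of the 9 genes, Tnxb, was higher and 3, Thbs1, Thbs2 and Tnc, were lower, while 10.9% of the 17782 genes compared were higher and 13.4% were lower. The median log2 difference was -0.66 over the 9 genes and -0.08 over all genes. All 9 gave a value, and Thbs4, Tnc and Tnn entered the median at their bounds. The bounds of Thbs4 and Tnn fell short of 2-fold, so these genes were not counted, although their differences may be larger. Over all genes 1937 were higher and 2375 lower, and with the 75th percentile taken over probes detected on all arrays 2422 were higher and 1934 lower. Markers of other cells also differed. Of 8 measured mesenchymal stromal markers 0 were higher and 4 lower, with summed levels of 86.3 in the transfected tissue and 141 in stem cells. Of 5 measured adipocyte markers 4 were higher and 0 lower, with sums of 4.22 in the transfected tissue and 3.35 in stem cells. In stem cells Adipoq, Plin1, Cfd, Lep and Cidec were not well above background, so all 4 higher values are bounds. Of 5 measured skeletal muscle markers 0 were higher and 3 lower (sums 0.662 in the transfected tissue and 1.88 in stem cells), of 4 bone markers 2 and 0 (1.05 and 0.262), and of 5 Schwann cell and nerve markers 2 and 0 (3.49 and 2.96). Of the remaining lists, cartilage had 1 higher and 1 lower of 8, endothelium 1 and 0 of 4, epidermis 0 and 1 of 4, neutrophils 0 and 1 of 3, erythroid cells 0 and 0 of 2 and platelets 1 and 0 of 1. Their part in the differences of Thbs1, Thbs2, Tnc and Tnxb was not tested.

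Setting transgenic against wild type ligament bears on what went with A in the animal. Here 4 of the 9, Tnmd, Comp, Thbs4 and Thbs2, were higher and 0 were lower, while 6.29% of 16377 genes were higher and 7.03% were lower. The median log2 difference was 0.75 over the 9 genes and -0.03 over all genes, and none of the 9 was a bound. The other 5 had log2 differences between -0.58 (Tnxb) and 0.75 (Tnc).

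Markers of other cell types moved between the same ligament arrays. The summed level of 8 epidermal markers was 156 in transgenic and 27.9 in wild type ligament, with 7 of 8 higher, and that of 8 bone markers was 187 and 47.2 in the same samples, with 4 of 6 measured higher and Sp7 and Sost not well above background in either. The summed level of 8 neutrophil markers was 427 in transgenic and 1195 in wild type ligament, with all 8 lower, and that of 8 erythroid markers was 276 in transgenic and 1011 in wild type ligament, with 7 lower. The 7 platelet markers summed to 3.63 in transgenic and 13.4 in wild type ligament, with 6 of 6 measured lower and Gp5 not well above background in either. The 10 skeletal muscle markers summed to 6214 in transgenic and 6320 in wild type ligament, with 3 of 9 measured higher and 1 lower. Of 9 cartilage markers, which include genes of tissues where Comp is also made, the sum was 6.38 in transgenic and 1.62 in wild type ligament, with 2 of 6 measured higher, and Matn1, Col9a3 and Lect1 were not well above background in either. Of 5 measured endothelial markers 0 were higher and 0 lower, of 6 Schwann cell and nerve markers 0 and 1, and of 5 measured adipocyte markers 0 and 1. The part of these cell types in the differences of Tnmd, Comp, Thbs2 and Thbs4 was not tested.

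**Figure D3:**
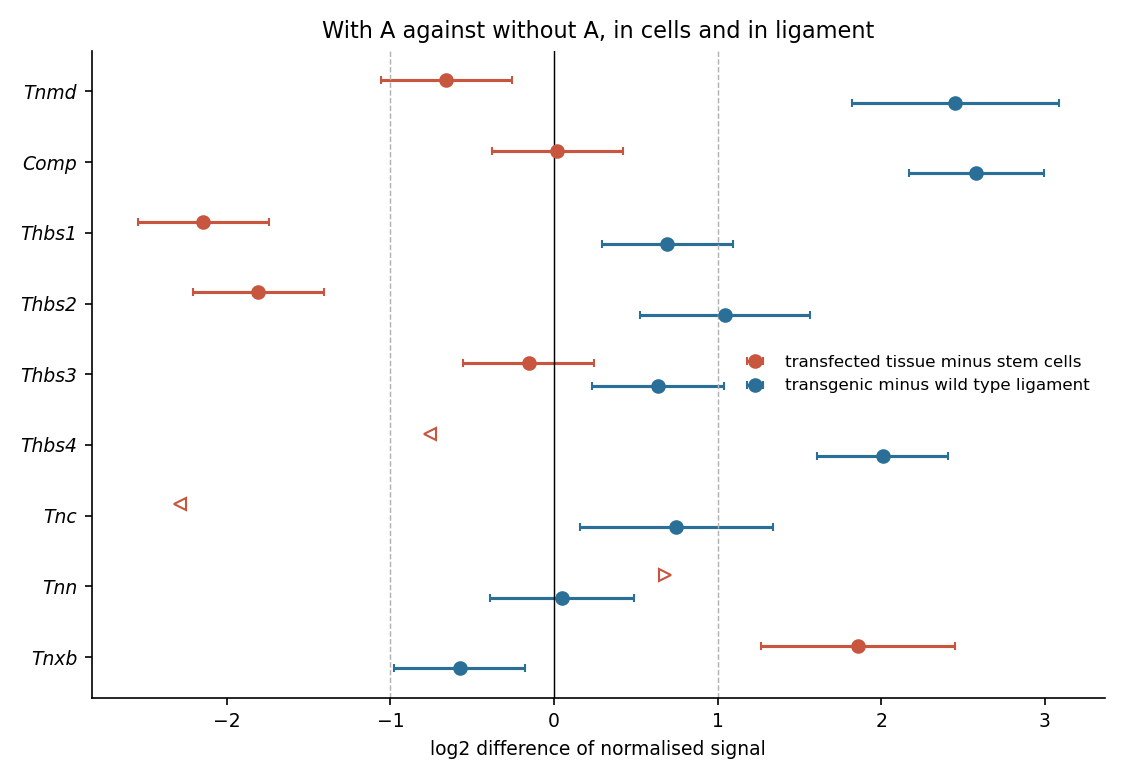
Log2 difference of each of the 9 genes between the transfected tissue and stem cells and between transgenic and wild type ligament, with 95% scanner intervals. Open triangles are bounds and dashed lines mark 2-fold. Tnmd is at -0.66 in cells and 2.45 in ligament, and Tnxb is at 1.86 and -0.58.

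These comparisons have no array in common, so their signs can be set side by side. They were opposite for 7 of the 9 genes, beside 45.4% of the 14451 genes with a value in both. Tnmd, Thbs1, Thbs2, Thbs3, Thbs4 and Tnc were below the control in the transfected tissue and above it in transgenic ligament, and Tnxb was the reverse. Of all genes with a value in both, 24.0% were likewise below the control in the transfected tissue and above it in transgenic ligament. Both differences exceeded the scanner interval for Tnmd, Thbs1, Thbs2, Tnc (a bound in cells) and Tnxb, and the one in cells did not for Thbs3. For Thbs4 in cells the bound's interval, which counts only the error in stem cells, was -1.30 to -0.23, but the gap between the measured levels, 2.64 with a scanner error of 1.46, was within the 95% interval once the dim spot's own error was counted. Thbs2 alone passed 2-fold both ways, beside 1.76% of genes. Comp and Tnn had positive differences in both comparisons, of 0.02 and 2.58 for Comp and, as a bound in cells, 0.68 and 0.05 for Tnn. The difference of Comp in cells lay within the scanner interval, as did that of Tnn in ligament. For Tnn in cells the measured gap, 1.22 with a scanner error of 0.636, was also within the 95% interval.

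Wild type ligament against stem cells, which differ in strain and tissue as well as in cell type, gave 4 of the 9 higher, Thbs4, Tnxb, Tnn and Tnc, and 2 lower, Thbs2 and Tnmd. Over 16549 genes 37.7% were higher and 24.6% were lower. The medians were 0.74 for the 9 genes and 0.29 for all genes. Thbs4 and Tnxb had log2 differences of 7.54 and 6.65, and Tnn one of at least 4.67. Tnc, at 1.17, was within 2-fold with quantile normalization (0.48), with the deposited value table (0.54) and with the mean of its probes (0.90). With normexp background correction the log2 differences against dim signals lay nearer to 0, at 5.64 for Thbs4, 4.86 for Tnxb, at least 2.91 for Tnn and -1.97 for Thbs2. In that setting Tnmd, at -0.82, was no longer past 2-fold, which left 1 of the 9 genes lower, beside 3228 of 15909 genes. Over all genes 6239 were higher and 4064 lower, and with quantile normalization the counts were 5332 and 5220, and the deposited values gave 5261 and 5327.

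Setting the transfected tissue against wild type ligament shows how far the tissue stood from ligament. Here 2 of the 9, Tnmd and Thbs2, were higher and 5, Thbs4, Tnxb, Tnn, Tnc and Thbs1, were lower, while 23.0% of 16458 genes were higher and 39.7% were lower. The medians were -1.55 for the 9 genes and -0.43 for all genes. Thbs1 was at -1.55, Tnn at -3.99 and Tnxb at -4.79. Over all genes 3786 were higher and 6530 lower, and with quantile normalization the counts were 5072 and 5142, and the deposited values gave 5178 and 5083. With normexp background correction the log2 differences were at most -6.45 for Thbs4, at most -2.82 for Tnc and -3.22 for Tnn. In that setting 0 of the 9 genes were higher, with Tnmd at 0.21 and Thbs2 at 0.34, beside 2866 of 15755 genes. This comparison shares an array with each of the other 3, so its values are only set beside theirs.

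Markers of many other cell types separated wild type ligament from both cell samples. Skeletal muscle markers, beside which Thbs4 is also a gene of muscle, summed to 0.662 in the transfected tissue, against 6320 in wild type ligament and 1.88 in stem cells. The sums were 0.522, 1195 and 0.640 for neutrophil markers, 0.0530, 1011 and 0.0806 for erythroid markers and 4.22, 148 and 3.35 for adipocyte markers in the same order of samples. They were 1.05, 47.2 and 0.262 for bone, 0.832, 27.9 and 0.935 for epidermis, 3.06, 28.7 and 4.74 for endothelium and 0.108, 13.4 and 0.0648 for platelets. Schwann cell and nerve markers summed to 3.49, 3.46 and 2.96, so their sum did not separate wild type ligament from the cell samples. In the transfected tissue against wild type ligament, lower markers were 9 of 9 measured for muscle, 8 of 8 for neutrophils, 8 of 8 for erythroid cells, 6 of 6 for platelets, 5 of 5 for adipocytes, 5 of 6 for bone, 6 of 7 for epidermis, 4 of 5 for endothelium and 4 of 6 for Schwann cells. In wild type ligament against stem cells, higher markers were 9 of 9 for muscle, 8 of 8 for neutrophils, 8 of 8 for erythroid cells, 6 of 6 for platelets, 5 of 5 for adipocytes, 6 of 6 for bone, 6 of 7 for epidermis, 4 of 4 for endothelium and 4 of 6 for Schwann cells. Mesenchymal stromal markers ran the other way, with 5 of 8 higher and 1 lower in the transfected tissue than in wild type ligament and 1 of 9 higher and 8 lower in wild type ligament than in stem cells. Cartilage markers had 3 of 4 measured higher in the transfected tissue than in wild type ligament and 2 of 3 lower in wild type ligament than in stem cells. The part of these cell types in the differences of the 9 genes between cells and ligament was not tested.

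**Figure D4:**
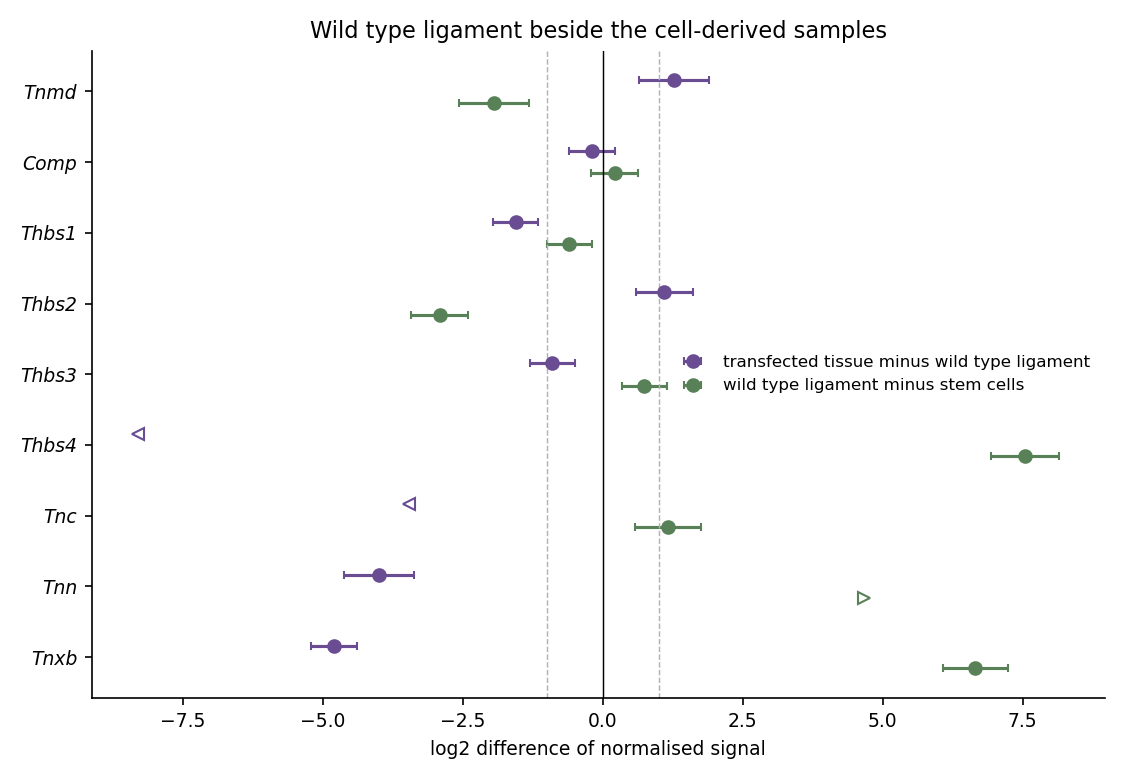
Log2 difference of each of the 9 genes between the transfected tissue and wild type ligament and between wild type ligament and stem cells, with 95% scanner intervals. Open triangles are bounds and dashed lines mark 2-fold. Tnxb lies at -4.79 and 6.65 and Comp within 2-fold in both.

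Known regulators of tenomodulin were measured on the same arrays. Of 4, 0 were higher and 1 lower in the transfected tissue than in stem cells, and 3 were higher and 0 lower in transgenic than in wild type ligament. Scx, or scleraxis, which switches on tendon genes including Tnmd, had a level of 0.441 in the transfected tissue, 8.57 in transgenic and 4.06 in wild type ligament, and 1.48 in stem cells. Its log2 difference was -1.75 between the transfected tissue and stem cells and 1.08 between the ligaments, the same signs as Tnmd. The signs were opposite in the other comparisons. Between wild type ligament and stem cells Scx was at 1.45 and Tnmd at -1.93. Between the transfected tissue and wild type ligament they were at -3.20 and 1.28. Egr1, a zinc finger factor of tendon repair in mice, differed by 0.28 in cells and by 1.80 between the ligaments, and its relative Egr2 by 0.77 and 1.33. Mkx, the homeobox factor Mohawk, differed by 0.02 in cells and gave a bound of 0.06 between the ligaments.

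Relatives of tenomodulin that carry a BRICHOS domain gave 2 of 5 measured genes higher and 0 lower in the transfected tissue than in stem cells. Lect1, or chondromodulin, the closest relative, had a level of 0.613 in the transfected tissue and 0.0765 in stem cells, 8.01-fold higher. It was not well above background in either ligament. Itm2c was 2.15-fold higher in the transfected tissue than in stem cells. Gkn3 was 2.18-fold higher in transgenic than in wild type ligament, where 1 of 4 measured genes was higher and 0 were lower.

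Of 10 thrombospondin receptors and partners, 2 were higher and 1 lower in the transfected tissue than in stem cells. The endocytic receptor Lrp1 was 2.70-fold and the calcium-binding chaperone Calr 2.52-fold higher, and the integrin subunit Itgb3 was 2.12-fold lower. Between the ligaments 1 was higher, the integrin subunit Itgav, at 2.93-fold, and 0 were lower. Itgb3 was at -0.89 and the scavenger receptor Cd36 at 0.81 on the log2 scale, both within 2-fold. Of 11 tenascin receptors and partners measured, 4 were higher and 1 lower in the transfected tissue. Ptprz1, a receptor phosphatase that binds Tnc, was 7.33-fold higher, with levels of 1.14 in the transfected tissue and 0.156 in stem cells, and Tlr4, an innate immune receptor that Tnc activates, was 2.39-fold higher. Tlr4 was also 3.12-fold higher in transgenic than in wild type ligament, where 2 of 10 were higher and 0 lower. Tnr, the tenascin of the nervous system, was not well above background on any array.

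Partners of Comp (collagens, matrilins, aggrecan and fibronectin) gave 0 of 8 higher and 1 lower in the transfected tissue than in stem cells, and 3 of 7 higher and 0 lower in transgenic than in wild type ligament. Col2a1, the cartilage collagen, differed by -1.04 in cells and 2.16 between the ligaments, and Matn3 by a bound of 2.51 between the ligaments.

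Genes outside the group whose 4 levels ran most closely in parallel were found by a root mean square difference over 4 arrays only. It was taken on log2 levels less each gene's own mean over the arrays. For Tnmd, among 9746 candidates, they were Nr1d1 (0.30), Cpne2 (0.31), Hebp2 (0.32) and Pigt (0.34). For Comp they were Cytl1 (0.27), Anxa9 (0.32), Tuft1 (0.34) and Plvap (0.39), and for Thbs2 Lmna (0.09), Csrp1 (0.12), Arhgap22 (0.13) and Lgals3 (0.14). These candidates and genes were well above background on all 4 arrays. No such ranking is given for Thbs4 and Tnc, which were not well above background in the transfected tissue.

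**Figure D5:**
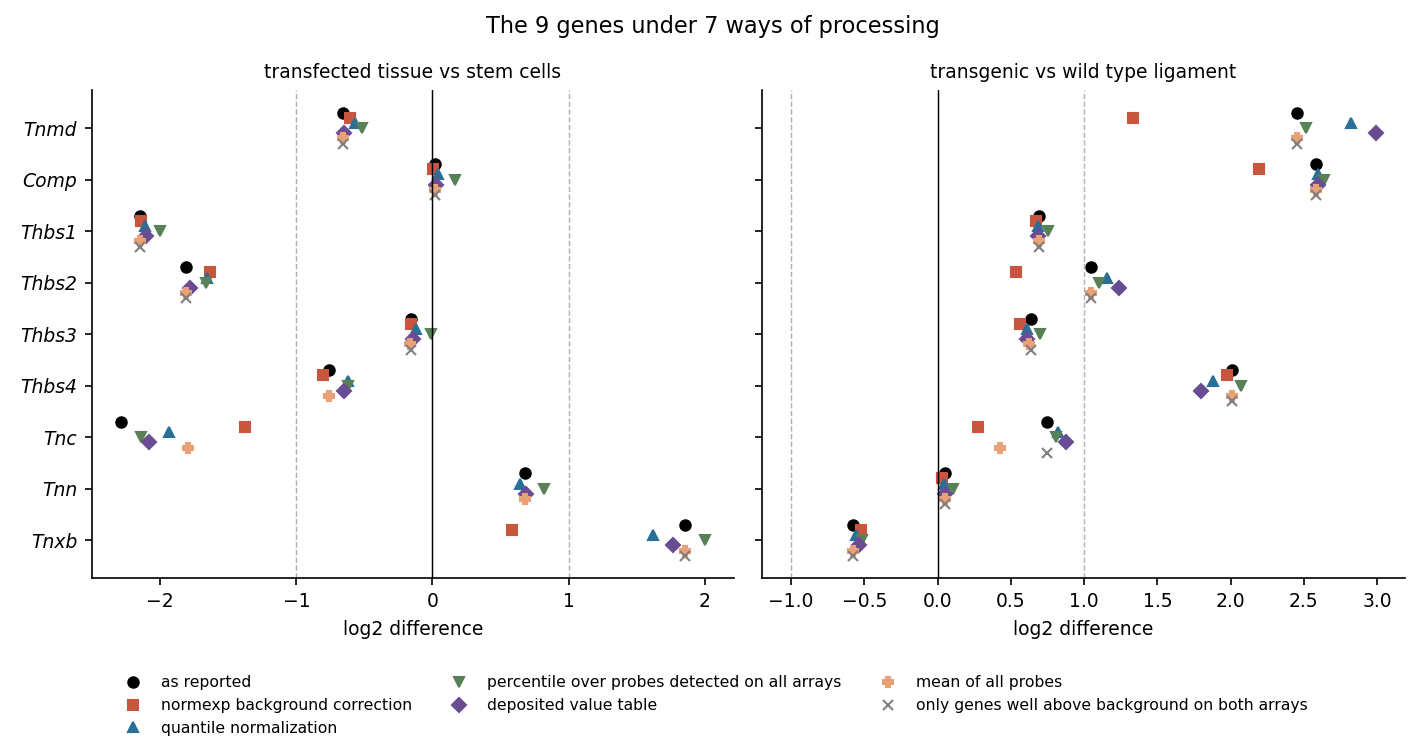
Log2 difference of the 9 genes between the transfected tissue and stem cells and between transgenic and wild type ligament under 7 ways of processing the arrays. Each point is 1 way of processing. Tnmd between the ligaments ranges from 1.33 to 2.99, and no difference in these comparisons changes sign.

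Start-site windows were read from RefSeq on the build GRCm38.p6, 250 bases before to 50 after the start, for 7 of the 9 genes in 8 windows, and Comp and Thbs1 are named only. The windows of Tnmd and Thbs4, members that were both higher in transgenic ligament, are shown so that their letters can be set against motifs of the regulators above. The motifs searched, on both strands, were the E-box CANNTG, the letters TATAAA and the EGR motif GCGNGGGCG. They occur in 72.3%, 13.6% and 5.55% of 32851 windows. The Tnmd window, chrX:133850758-133851057 on the plus strand, held 0 of each, and the Thbs4 window, chr13:92794769-92795068 on the minus strand, held 2 E-boxes, given in capitals. At least as many E-boxes occurred in 39.6% of windows.
Tnmd: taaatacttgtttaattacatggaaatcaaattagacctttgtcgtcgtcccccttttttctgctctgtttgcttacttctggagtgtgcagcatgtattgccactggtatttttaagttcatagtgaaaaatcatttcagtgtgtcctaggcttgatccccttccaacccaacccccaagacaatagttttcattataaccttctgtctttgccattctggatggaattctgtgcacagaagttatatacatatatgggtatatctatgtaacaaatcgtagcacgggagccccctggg
Thbs4: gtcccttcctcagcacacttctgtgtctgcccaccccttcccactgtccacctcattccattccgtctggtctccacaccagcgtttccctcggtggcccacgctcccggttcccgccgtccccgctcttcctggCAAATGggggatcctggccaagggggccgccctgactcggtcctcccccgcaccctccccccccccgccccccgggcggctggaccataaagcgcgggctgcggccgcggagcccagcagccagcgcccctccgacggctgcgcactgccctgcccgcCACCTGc

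The EGR motif occurred in the overlapping windows of Tnc and in none of the other 6 windows. The window of Thbs2, also higher in transgenic ligament, held 2 E-boxes and 1 TATAAA. Of genes not past 2-fold there, the Tnc windows held 2 and 3 E-boxes, those of Thbs3 and Tnxb 1 each and that of Tnn 0. A match describes letters and is not a binding site.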

How the data were processed

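Gene expression of 4 mouse RNA samples was measured on Agilent single-colour (Cy3) arrays, 1 per sample and group, and that number limits how precise any value can be. Per the file headers, the deposited scanner files hold background-subtracted, detrended spot intensity on a linear scale from Feature Extraction 10.7.1.1, with probe positions on mm9; the submitters' processing notes name version 9.5.1.1. The authors' deposited value table also holds linear intensity, with its normalization not given in the sources used here.

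Each array has 44397 spots, 43020 of them not controls. Between 155 and 281 outlier spots per array were left out, and none was saturated. The level was log2 of processed signal less that of the 75th percentile, averaged over a probe's spots, and the brightest probe represented a gene. The spot SD of log2 signal was between 0.0654 and 0.185 over probes with 10 spots. It was highest on the stem cell array, above the scanner error there of bright single-spot probes such as Thbs1 (0.144). Scanner intervals against stem cells can therefore be narrower than the spread between spots. The error is the scanner software's, and intervals are 95%.

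Genes were compared in 4 comparisons when well above background on at least 1 array, with bounds for the dimmer array, and called from 2-fold; no test was made. Named genes are all 9 members, up to 3 per list and comparison with the largest difference, and the 4 nearest patterns for each of 5 members (not printed for Thbs4 and Tnc, whose ranking rests on a level below background). The members and the 19 lists were chosen with earlier results of these data known. Alternatives were normexp (offset 50), quantile normalization, a percentile over probes detected on all arrays, the deposited table, the mean of all probes, and only genes well above background on both arrays. Scripts were tested on simulated data. Python 3.11.15, numpy 2.4.6, pandas 2.3.3, matplotlib 3.10.9, R 4.3.3 and limma 3.58.1 were used.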

Additional observations from a re-analysis of the deposited data

Results flagged for a closer look

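The difference between the transfected tissue and stem cells and that between transgenic and wild type ligament had opposite signs for 7 of the 9 genes, beside 45.4% of all genes with a value in both, and 6 of them are given here. Thbs3 is not, as its difference in cells lay within the scanner interval. The share of all genes past the scanner interval in both comparisons was not computed. With 1 array per group, how far these differences lay apart was not tested. The difference in cells minus that in ligament was -3.11 on the log2 scale for Tnmd, -2.84 for Thbs1, -2.85 for Thbs2 and 2.44 for Tnxb. It was -2.77 for Thbs4 and -3.04 for Tnc, where the difference in cells is a bound. For Thbs4 the measured gap in cells was within the scanner interval once the dim spot's error was counted. The 7 of 9 genes with opposite signs stayed 7 of 9 with quantile normalization, the percentile over detected probes, the deposited table and the mean of all probes. They were 7 of 8 with normexp background correction and 5 of 6 when limited to genes measured well above background on both arrays. Over all genes the share with opposite signs was between 45.0% and 46.1% in these settings.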

How the results depend on the processing

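Of the 8 counts of the 9 genes past 2-fold, that of genes lower in transgenic than in wild type ligament stayed 0, and the others changed in at least 1 setting. The cause of these changes was not tested. With normexp background correction 0 were higher in the transfected tissue than in stem cells (reported 1), 1 was lower in wild type ligament than in stem cells (reported 2), 0 were higher in the transfected tissue than in wild type ligament (reported 2) and 3 were higher in transgenic than in wild type ligament (reported 4). With quantile normalization, the deposited table, the mean of all probes and the limit to genes well above background on both arrays, 3 were higher in wild type ligament than in stem cells (reported 4). Over all genes the counts there were 5332 of 17359, 5261 of 17304, 6397 of 16373 and 4575 of 13406 in that order. When limited to genes measured well above background on both arrays, where fewer are compared, 3 were lower in the transfected tissue than in wild type ligament (reported 5), where the mean of all probes gave 6, and 2 were lower in the transfected tissue than in stem cells (reported 3). Over all genes these counts were 4846 of 13352, 6623 of 16317 and 1847 of 15709 in that order. Thbs3 in the transfected tissue against wild type ligament passed 2-fold with the mean of its probes (-1.01), and Comp there changed sign, from within 2-fold, with the percentile over detected probes (0.03). Over all genes normexp left 1067 higher and 2164 lower of 17255 in the transfected tissue than in stem cells. It left 404 higher and 573 lower of 16485 in transgenic than in wild type ligament. With it 3228 of 15909 were lower in wild type ligament than in stem cells. In the transfected tissue 2866 of 15755 were higher than in wild type ligament. Limited to genes detected on both arrays, the ligament counts were 680 and 781 of 14516. The median of all genes in the transfected tissue against wild type ligament was -0.43 as reported, 0.13 with quantile normalization, -0.17 with the percentile over detected probes and 0.15 in the deposited table. In wild type ligament against stem cells it was 0.29, -0.13, 0.20 and -0.15 in the same order, and in the transfected tissue against stem cells -0.08, 0.02, 0.06 and 0.02. No paired analysis was possible because each group has 1 array. The arrays limit the dim genes: Tnc and Thbs4 in the transfected tissue and Tnn in stem cells have only bounds.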

Other observations

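Other matricellular genes, proteins that bind matrix and cells without building fibrils, gave 3 of 14 higher and 5 lower in the transfected tissue than in stem cells, and 4 of 13 measured higher and 0 lower in transgenic than in wild type ligament. Sparcl1 and Smoc2 had log2 differences of 3.37 and 2.31 in the transfected tissue against stem cells, and Smoc1 one of -3.29. Between the ligaments Wisp1 was at 2.09, Ctgf, the connective tissue growth factor, at 1.86 and Spp1, or osteopontin, at 1.41.

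Of the fibrillar collagens, 0 of 10 measured were higher and 3 lower in the transfected tissue than in stem cells, and 3 of 9 higher and 0 lower in transgenic than in wild type ligament. Col5a1, Col1a1 and Col2a1 were at -1.27, -1.07 and -1.04 in the transfected tissue against stem cells. Col2a1, Col11a2 and Col1a2 were at 2.16, 1.07 and 1.02 between the ligaments. Of 8 measured ligament and tendon markers outside the 9 genes, 2 were higher and 2 lower in the transfected tissue than in stem cells. The small proteoglycan Dcn was at 2.76 and Kera at a bound of 2.56, while Scx was at -1.75 and Col1a1 at -1.07. In transgenic against wild type ligament 6 of 9 were higher and 0 lower, with Fmod at 2.15 and Aspn at 2.14. In the transfected tissue against wild type ligament 2 of 9 were higher and 5 lower, beside 23.0% and 39.7% of all genes. The median of these 9 markers was -1.88. Chad gave a bound of -4.63, Scx was at -3.20 and Fmod at -2.44, while Aspn was at 2.37 and Mkx gave a bound of 2.16.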
